A study of Homo sapiens with 10 samples.

Results

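The genes described here were ESR1 and 8 further genes of the estrogen response: ESR2, PGR, GREB1, MYB, TFF1, TFF3, CA12 and FOXA1. They were taken by symbol from the deposited count table, and all 9 were found among its 25370 genes. The study compared parental PEO1, an established line from a high grade serous ovarian carcinoma that lacks working BRCA2, with 4 clones selected in the PARP inhibitor veliparib and called ABTr1, ABTr2, ABTr3 and ABTr4. The parental cells carry the genotype label WT and received no listed drug, and each clone is a single drug-selected line labelled veliparib resistant, held in 40 µM veliparib for 6 months and without it for the last 4 to 5 days. All groups were grown in the same serum medium with added insulin, and the labels name no added estrogen or anti-estrogen. Polyadenylated RNA of 10 libraries was read, 2 per group, and the 2 libraries of a group are its replicates 1 and 2.

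Estrogen receptor alpha, the product of ESR1, is a nuclear receptor that binds estradiol and then DNA at palindromic response elements, where it recruits coactivators to nearby genes. Estrogen receptor beta, from ESR2, binds the same hormone and the same elements. In breast and uterine epithelium the forkhead protein FOXA1 opens chromatin for the receptor, and PGR, GREB1, TFF1 and TFF3 are textbook targets that report on its activity. Many serous ovarian carcinomas make estrogen receptor alpha, and the receptor is used there as a diagnostic marker and at times as a drug target.

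Libraries held 20640602 to 55488566 counted reads. Values are CPM, the reads of a gene scaled to a common library size with the TMM factors of edgeR, changes are log2 ratios (log2 fold changes) of clones to parental cells from the fit, and a gene passed at an edgeR adjusted p under 0.05 over 16490 tested genes. The cell type label of all libraries is epithelial. The summed level of 6 epithelial markers (EPCAM, KRT7, KRT8, KRT18, KRT19 and CDH1) was 8948 to 13684 CPM in parental libraries and 2546 to 3414 CPM in clone libraries, and all 6 fell. The part of this wider change in the values below was not tested. Of 4 Müllerian and serous markers, MUC16 fell from 43.5 to 0.470 CPM on average, PAX8 did not pass (124 and 137 CPM), and SOX17 had 0 reads. WT1 also fell, from 8.26 to 1.25 CPM on average. Its parental libraries, at 13.9 and 2.63 CPM, overlapped the clone libraries, at 0.145 to 3.21 CPM. The sum of the 4 markers, mostly PAX8, was 162 to 190 CPM in parental and 97.5 to 201 CPM in clone libraries.

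Markers of other cell types were low or uneven. Of 5 fibroblast markers, DCN, LUM and COL3A1 had no read in any library, COL1A2 had 2 clone reads, and PDGFRB had 9 parental and 216 clone reads and did not pass. Their sum was 0.124 to 0.155 CPM in parental and 0.134 to 1.48 CPM in clone libraries. Of 5 leukocyte markers 1 rose, CD68, a lysosomal protein, from 32.6 to 98.1 CPM, and the sum was 39.6 to 52.5 and 72.0 to 145 CPM. Of 4 endothelial markers 1 fell, CDH5, from 38.1 to 3.04 CPM, and the sum was 15.5 to 62.3 and 2.01 to 16.3 CPM. The part of these markers in the values below was not tested either.

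Of the 9 genes, 7 had enough reads to be tested and 2, TFF1 and TFF3, had 0 reads in every library. When the mean of the 4 clones was set against parental cells, 3 of the 7 fell, ESR1, MYB and FOXA1, and 0 rose. Over all tested genes 16.0% passed in that comparison, 8.79% as lower and 7.17% as higher. The other 4, ESR2, PGR, GREB1 and CA12, did not pass. The same 3 genes were those with all 8 clone libraries below both parental libraries, a pattern met by 12.5% of all tested genes. Only ESR1 of the 3 passed without PEO1 replicate 2.

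The start regions of the 3 genes that fell are shown so that their CpG content and the motifs searched can be seen. RefSeq promoter windows of 300 bases ran from 250 before to 50 after an annotated start (GRCh38.p14). They were found for 6 of the 9 genes, 17 windows in all, as a gene can have several starts. GREB1, TFF1 and TFF3 had no window, so no motif was searched in them. The counts do not say which start was used, so for ESR1 the window with the most CpG pairs of its 6 is given. Capitals mark each CpG, the pair of bases at which DNA is methylated.
ESR1, chr6:151807432-151807731, plus strand: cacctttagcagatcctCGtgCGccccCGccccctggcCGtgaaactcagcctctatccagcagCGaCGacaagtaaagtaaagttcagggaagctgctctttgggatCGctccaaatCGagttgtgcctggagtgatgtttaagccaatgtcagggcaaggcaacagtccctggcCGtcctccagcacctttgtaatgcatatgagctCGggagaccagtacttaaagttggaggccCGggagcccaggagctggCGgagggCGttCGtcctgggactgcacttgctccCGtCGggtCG
MYB, chr6:135181058-135181357, plus strand: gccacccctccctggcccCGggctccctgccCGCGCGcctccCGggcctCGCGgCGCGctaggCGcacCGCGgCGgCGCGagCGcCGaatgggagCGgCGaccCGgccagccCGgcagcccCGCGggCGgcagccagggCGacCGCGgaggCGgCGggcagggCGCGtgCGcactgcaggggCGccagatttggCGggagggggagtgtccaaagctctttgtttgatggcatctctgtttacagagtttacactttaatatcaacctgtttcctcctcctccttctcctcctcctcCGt
FOXA1, chr14:37595200-37595499, minus strand: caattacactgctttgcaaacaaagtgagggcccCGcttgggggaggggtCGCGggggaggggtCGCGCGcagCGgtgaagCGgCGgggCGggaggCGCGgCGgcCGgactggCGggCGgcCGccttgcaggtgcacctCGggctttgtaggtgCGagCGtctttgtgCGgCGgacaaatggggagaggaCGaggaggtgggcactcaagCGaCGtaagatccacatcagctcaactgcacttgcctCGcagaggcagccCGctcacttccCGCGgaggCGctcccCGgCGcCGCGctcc
The ESR1 window held 17 CpG pairs, MYB 35 and FOXA1 34, against a median of 14 over all 35116 windows of the table. The other 5 ESR1 windows held 4 to 12. The full estrogen response element, GGTCANNNTGACC, was in none of the 17 windows and in 0.0570% of all windows. A single arm of it, GGTCA on either strand, was in 7 of the 17 and in 37.4% of all, and this count includes any arm within a full element. Those 7 windows belong to ESR1, ESR2, PGR and CA12, some of them overlap, and none is printed above. CACCTG, the E-box read by ZEB and SNAIL repressors, was found on either strand in the FOXA1 window alone, which has it in reverse as caggtg, and in 20.6% of all windows. The forkhead motif GTAAACA was found on either strand in the MYB window alone, and in 3.42% of all. These matches describe letters in short windows.

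The receptor genes were described next, beginning with ESR1 (hg19 chromosome 6, 152011631 to 152424408, plus strand). It was at 94.2 and 123 CPM in parental replicates 1 and 2. It was at 1.08 and 0.769 CPM in ABTr1, 0.563 and 1.21 CPM in ABTr2, 0.134 and 0.295 CPM in ABTr3, and 0.172 and 0.339 CPM in ABTr4. Every clone library was far below both parental libraries, and the lowest parental value was 78.0 times the highest clone value. In reads, 3798 and 3176 parental reads stood against 155 reads over the 8 clone libraries, and each of these held some. The log2 ratio of the mean of the 4 clones was -7.91 (SE 0.32, edgeR adjusted p = 1.2e-05), and in 16 other settings it lay between -8.11 and -7.71 with every adjusted p under the threshold. By size of fall ESR1 was number 24 of the 16490 tested genes. In bulk RNA fewer cells with the transcript and less of it per cell cannot be told apart.

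Among the clones the ESR1 levels were ordered ABTr1, ABTr2, ABTr4, ABTr3, at means of 0.922, 0.886, 0.255 and 0.215 CPM. ABTr1 and ABTr2 overlapped each other, as did ABTr4 and ABTr3. Both libraries of ABTr1 and of ABTr2 lay above all 4 libraries of ABTr3 and ABTr4. The counts behind this are small, for example 38 reads in ABTr1 replicate 1, with a 95% exact Poisson interval of 0.761 to 1.48 CPM, and 7 reads in ABTr3 replicate 1, with 0.0539 to 0.276 CPM. Such intervals cover counting error only. In the joint edgeR test of differences among clones ESR1 did not pass (adjusted p = 0.63), nor with the replicate number as a block (adjusted p = 0.059) or in limma-voom (adjusted p = 0.82), and it passed in DESeq2 (adjusted p = 0.0076).

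ESR2 (chromosome 14, 64693430 to 64805268, minus strand) was scarce in all groups. It was at 0.521 and 0.619 CPM in parental cells, 0.849 and 0.523 in ABTr1, 1.22 and 0.290 in ABTr2, 1.09 and 0.207 in ABTr3, and 0.818 and 0.708 in ABTr4. The groups overlapped: 5 clone libraries lay above and 2 below both parental libraries. Its log2 ratio was 0.34 (SE 0.69, edgeR adjusted p = 0.78), which is too wide an error to tell a rise from a fall. Per kilobase of exon, a scale that allows genes to be set side by side, parental ESR1 was 135 and 148 times ESR2 in replicates 1 and 2. In the clones that ratio of levels was 0.0914 to 3.10, with ESR1 below ESR2 in 5 libraries and above it in 3. It was near 1 in ABTr1 (0.943 and 1.095) and in ABTr3 replicate 2 (1.064), where few reads leave the order uncertain.

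PGR, the progesterone receptor gene (chromosome 11, 100900355 to 101000544, minus strand), was near the limit of detection. Parental replicate 1 had 4 reads and replicate 2 had 0. ABTr1 had 16 and 6 reads, ABTr2 had 40 and 0, ABTr3 had 39 and 2, and ABTr4 had 2 and 4. The highest values, 0.747 CPM in ABTr3 replicate 1 and 0.727 CPM in ABTr2 replicate 1, came from replicate 1 libraries, and a library of each of those clones was at or near 0. The log2 ratio was 2.11 (SE 1.54, edgeR adjusted p = 0.39), and no difference was detectable at this depth. Leaving out 1 library moved it between 0.39 (without ABTr2 replicate 1) and 6.27 (without PEO1 replicate 1), with no adjusted p under 0.26. It was 1.33 without PEO1 replicate 2 and 1.42 without ABTr3 replicate 1. Of the 13037 exon bases of PGR, 5.65% are shared with the antisense gene LOC101054525, and the kit keeps no strand, so reads there cannot be assigned to either.

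FOXA1, the pioneer factor of the receptor (chromosome 14, 38058757 to 38064325, minus strand), fell less than ESR1. It was at 9.72 and 23.0 CPM in parental cells, 5.35 and 9.35 in ABTr1, 7.67 and 4.83 in ABTr2, 5.99 and 6.14 in ABTr3, and 4.26 and 5.48 in ABTr4. The groups did not overlap, though ABTr1 replicate 2 came within 1.04 times of the lower parental library. The log2 ratio was -1.43 (SE 0.34, edgeR adjusted p = 0.025), and the value rested in part on PEO1 replicate 2, without which it was -0.70 (adjusted p = 0.33). The call also ended without ABTr1 replicate 1, ABTr3 replicate 1 or ABTr3 replicate 2, with adjusted p of 0.052 to 0.054 and log2 ratios of -1.43 to -1.34.

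**Figure D1:**
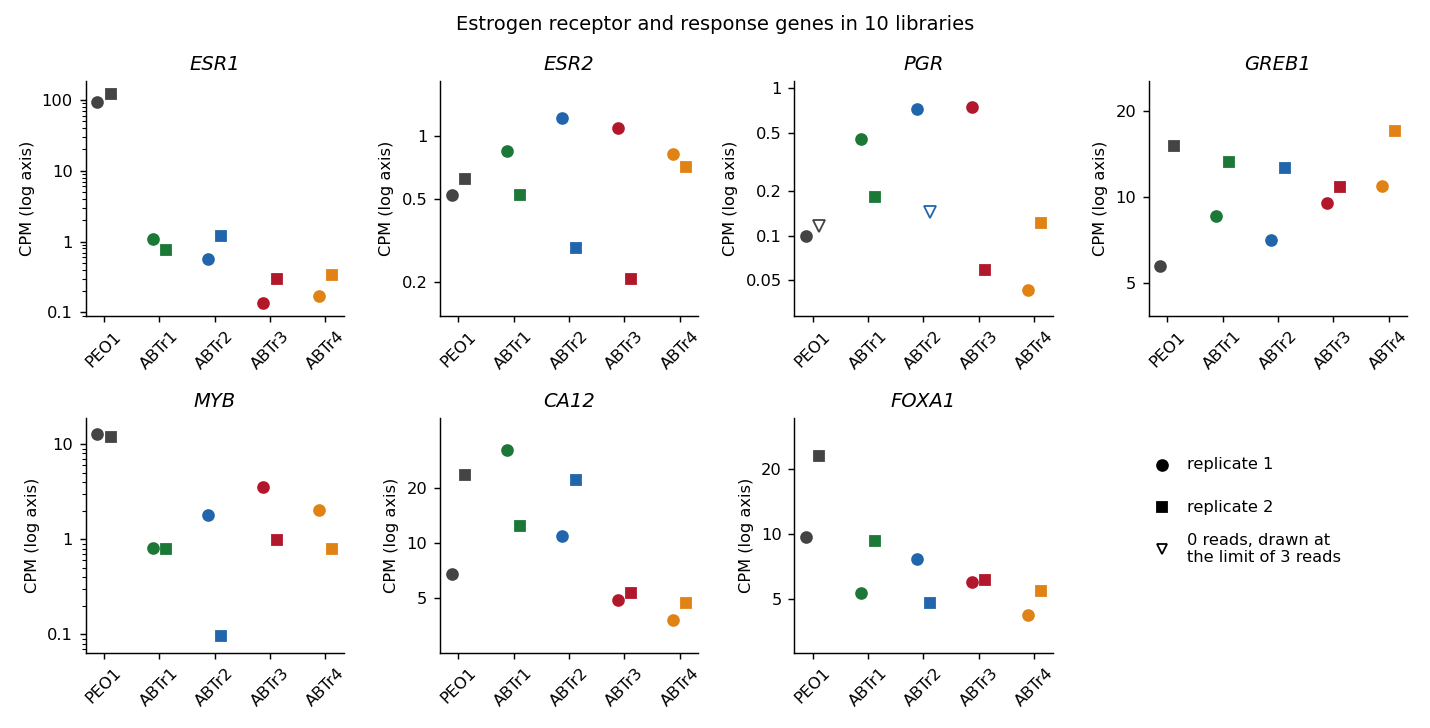
CPM of the 7 detected genes in each of 10 libraries on log axes, circles for replicate 1, squares for replicate 2, open triangles for 0 reads drawn at the level of 3 reads. ESR1 and MYB stand well apart between parental cells and clones, FOXA1 narrowly, and the other 4 genes overlap.

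Of the target genes besides PGR, which did not pass, 1 fell (MYB), 2 did not pass (GREB1 and CA12) and 2 had no reads (TFF1 and TFF3). MYB, a transcription factor whose elongation estrogen receptor alpha promotes in breast cancer cells (chromosome 6, 135502453 to 135540311, plus strand), was at 12.6 and 11.99 CPM in parental libraries. It was at 0.820 and 0.80 CPM in ABTr1, 1.78 and 0.0966 in ABTr2, 3.58 and 0.975 in ABTr3, and 2.04 and 0.801 in ABTr4. All clone libraries were below both parental libraries, but they spread widely, and ABTr2 replicate 2 rested on 2 reads. The log2 ratio was -3.27 (SE 0.66, edgeR adjusted p = 0.013), and it was -3.32 with an adjusted p of 0.068 without PEO1 replicate 2. Without ABTr2 replicate 1 it was -4.10 (adjusted p = 0.0022).

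GREB1, a cofactor of the receptor and one of its earliest targets in breast cells (chromosome 2, 11674242 to 11782912, plus strand), had overlapping levels in parental cells and clones. Parental libraries had 5.75 and 15.1 CPM. ABTr1 had 8.60 and 13.2, ABTr2 7.05 and 12.6, ABTr3 9.48 and 10.8, and ABTr4 10.9 and 16.9 CPM. Clone values thus lay mostly within the parental range, with 1 clone library above it and 0 below. The log2 ratio was 0.09 (SE 0.40, edgeR adjusted p = 0.90), and it was -0.46 without PEO1 replicate 1 and -0.04 without ABTr2 replicate 2. Per kilobase, GREB1 in the clones (1.08 CPM) was above ESR1 (0.0816 CPM).

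CA12, carbonic anhydrase 12, a membrane enzyme that acidifies the cell surface (chromosome 15, 63615730 to 63674075, minus strand), was uneven among the clones. It was at 6.79 and 23.3 CPM in parental libraries, 32.0 and 12.4 in ABTr1, 10.9 and 21.9 in ABTr2, 4.88 and 5.32 in ABTr3, and 3.79 and 4.68 in ABTr4. All 4 libraries of ABTr3 and ABTr4 lay below both parental libraries, while ABTr1 and ABTr2 overlapped the parental range. The mean log2 ratio was -0.67 (SE 0.48, edgeR adjusted p = 0.38), and it was 0.45 without PEO1 replicate 2. In the joint test among clones CA12 had an edgeR adjusted p of 0.80, of 0.090 with the replicate block, and of 0.025 in DESeq2.

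TFF1 and TFF3, small secreted trefoil peptides of mucous epithelia (chromosome 21, 43782391 to 43786644 and 43731777 to 43735706, minus strand), had 0 reads in all 10 libraries. A count of 0 was given a limit of 3 reads, or 0.0545 to 0.145 CPM depending on the library. The upper ends of the 95% exact Poisson intervals were somewhat higher, at 0.0670 to 0.178 CPM. The parental cells, which had 94.2 and 123 CPM of ESR1, thus gave no read of either target, nor of the third trefoil gene, TFF2. No change of these genes can be measured here.

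Clone by clone, ESR1 alone of the 7 tested genes passed against parental in the fit without the replicate block, and it did so in each clone. Its log2 ratios were -6.87 (SE 0.55) in ABTr1, -7.00 (SE 0.56) in ABTr2, -9.02 (SE 0.62) in ABTr3 and -8.75 (SE 0.61) in ABTr4, with edgeR adjusted p of 0.0017, 0.0016, 0.0010 and 6.7e-04. All genes together passed at 9.77%, 6.11%, 7.37% and 9.71% in these comparisons, which share the parental libraries. With the replicate block, in which 34.6% of genes passed in the mean comparison and 30.1%, 22.1%, 22.6% and 27.0% of genes passed, MYB also passed in each clone, at log2 ratios of -3.98, -4.05, -2.75 and -3.35 (adjusted p = 0.0034, 0.0042, 0.017 and 0.0066). FOXA1 passed with the block in ABTr3 (-1.36, adjusted p = 0.039) and ABTr4 (-1.69, adjusted p = 0.013), and CA12 in ABTr4 (-1.74, adjusted p = 0.049). ESR2, PGR and GREB1 passed in no clone with or without it.

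**Figure D2:**
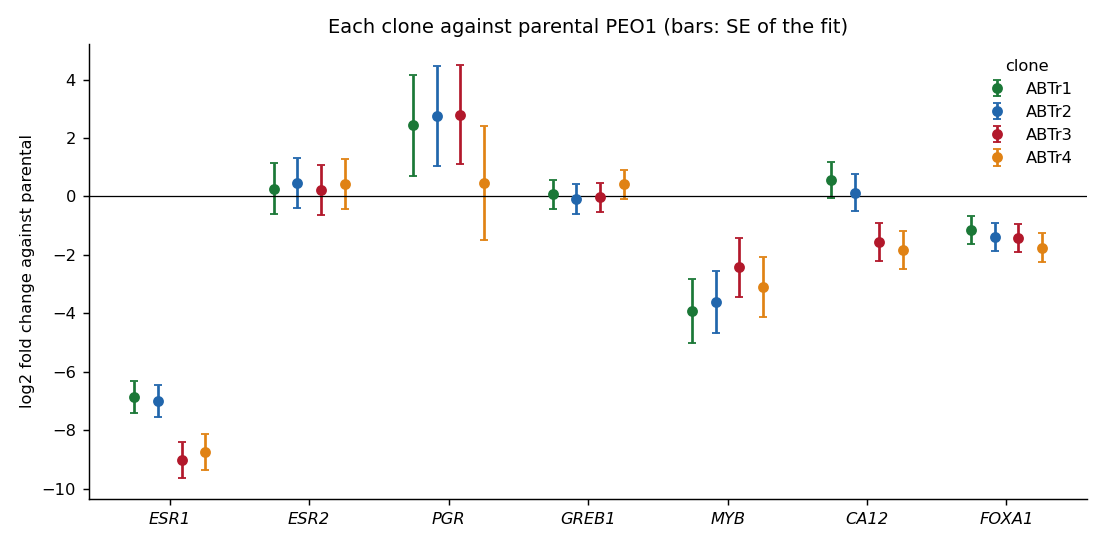
Log2 fold change of each clone against parental PEO1 for the 7 tested genes, points coloured by clone, bars the SE of the fit. ESR1 runs from -9.02 to -6.87 and is lowest in ABTr3 and ABTr4. CA12 is above 0 in ABTr1 and ABTr2 and below 0 in ABTr3 and ABTr4, and PGR has the widest bars, with an SE of 1.71 to 1.95.

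In the joint test among the 4 clones 0 of the 7 genes passed in edgeR, where 0.00606% of all genes did. At an unadjusted p under 0.05 there were 2, ESR1 and CA12, where 5.30% of all genes were under it. DESeq2 called these 2 and 1.72% of all genes. The block, with which 0.843% of all genes passed, and limma-voom called 0.

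Levels of GREB1, and of MYB without passing, also went with replicate number. Replicate 1 held more counted reads in each group, for example 55488566 against 20640602 in ABTr2, and the part of depth was not tested. GREB1 was higher in replicate 2 in all 5 groups, and MYB was higher in replicate 1 in all 5. In the fit with the block, replicate 2 against replicate 1 gave GREB1 a log2 difference of 0.73 (SE 0.19, edgeR adjusted p = 0.016) and MYB -1.20 (SE 0.45, adjusted p = 0.069). Of the 7 genes GREB1 alone passed, while 30.3% of all tested genes did. Read within a replicate number, all 8 clone libraries were below the parental library of their own number for ESR1, MYB and FOXA1. That follows from their lying below both parental libraries, a pattern met by 12.5% of all tested genes, and adds nothing to it. The count was 6 for CA12, 3 for GREB1 and ESR2, and 1 for PGR, and its share over all genes was not computed. This comparison of replicates was chosen after the values were seen.

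Other steroid and nuclear receptors were measured through a list of 18, all of which were tested. Of these 6 fell, 2 rose and 10 did not pass, with a median log2 ratio of 0.32 against 0.02 over all tested genes. Over all tested genes 8.79% fell and 7.17% rose. With the block 6 fell and 5 rose, beside 18.2% and 16.3% of all genes. The counts were 3 and 0 without PEO1 replicate 2, beside 3.43% and 2.14%. These shares are also the background of the next 3 lists. ESRRA, the estrogen-related receptor alpha, which binds DNA without estrogen, fell from 64.6 ± 22.1 CPM (SD, n = 2 libraries) to 21.3 ± 3.93 CPM (SD, n = 4 clones), a log2 ratio of -1.62 (SE 0.21, edgeR adjusted p = 0.0019). The glucocorticoid receptor NR3C1 fell from 165 ± 10.2 to 73.4 ± 13.7 CPM, and the vitamin D receptor VDR from 45.9 ± 0.846 to 17.0 ± 0.318 CPM. NR2F1, an orphan receptor, was at 9.97 and 38.6 CPM in parental PEO1 against 0.667 to 4.21 CPM in the clones (log2 ratio -3.49, SE 0.51), with an edgeR adjusted p of 0.0030. It was -2.23 (adjusted p = 0.065) without PEO1 replicate 2 and -4.18 without PEO1 replicate 1.

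The 2 that rose were GPER1 and NR0B1. GPER1, a G protein-coupled membrane receptor reported to bind estradiol, was at 1.29 and 0.503 CPM in parental PEO1 against 1.89 to 6.67 CPM in the clones, without overlap. Its log2 ratio was 1.96 (SE 0.50, edgeR adjusted p = 0.031). The GPER1 call ended without PEO1 replicate 2 (1.44, adjusted p = 0.17) and without any 1 of 5 clone libraries, both of ABTr1, both of ABTr3 and ABTr4 replicate 2 (adjusted p = 0.052 to 0.063). NR0B1, an orphan receptor that represses steroid synthesis genes, had a log2 ratio of 2.30 (adjusted p = 0.044) and was named after its values were seen. Its call ended without PEO1 replicate 2 (1.57, adjusted p = 0.16) and without any 1 of 7 clone libraries, all but ABTr4 replicate 1 (adjusted p = 0.053 to 0.080).

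Set in order of level per kilobase among these 18 receptors together with ESR1, ESR2 and PGR, ESR1 was number 5 of 21 in parental cells, at 15.6 CPM per kilobase. It was number 20 of 21 in the clones, at 0.0816, with PGR alone below it. ESRRB, number 19 in the clones, was nearly level with ESR1 at 0.0820, so their order is uncertain. NR2F6, which was at 50.6 and 29.3 CPM per kilobase, was highest in both.

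Coregulators and pioneer factors fell in part. Of 29 tested, 7 fell, 2 rose and 20 did not pass, with a median log2 ratio of -0.46, where 8.79% of all tested genes fell and 7.17% rose. With the block 12 fell and 2 rose, beside 18.2% and 16.3% of all genes, and without PEO1 replicate 2 the counts were 3 and 1. They were 4 and 1 without ABTr1 replicate 1, where 6.30% and 4.66% of all genes passed, and 6 and 0 without PEO1 replicate 1, where 7.37% and 4.99% did. NCOA3, a p160 coactivator often amplified in breast cancer, fell from 292 ± 61.2 to 95.9 ± 12.5 CPM (log2 ratio -1.61, SE 0.21, edgeR adjusted p = 0.0017). The related NCOA1 fell from 55.1 ± 5.73 to 24.8 ± 2.80 CPM (-1.16, adjusted p = 0.0053), and was at -1.07 (adjusted p = 0.054) without PEO1 replicate 2. TFAP2C, a transcription factor that sustains ESR1 expression in breast cells, fell from 149 ± 20.7 to 54.2 ± 13.2 CPM. TRPS1, a GATA-type repressor, fell from 126 ± 4.57 to 63.4 ± 23.0 CPM (log2 ratio -1.07, adjusted p = 0.012). That call ended, at ratios of -1.05, without PEO1 replicate 2 (adjusted p = 0.075) and when each clone's libraries were summed (adjusted p = 0.051).

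GATA3, which acts with ESR1 and FOXA1 in luminal breast cells, was at 9.74 ± 2.48 CPM in parental PEO1 against 4.92 ± 1.04 CPM in the clones, with overlap. It did not pass (log2 ratio -1.01, SE 0.39, edgeR adjusted p = 0.11), and passed with the block (-1.09, adjusted p = 0.026). The 2 that rose, named after their values were seen, were NRIP1, a corepressor and itself an estrogen target (log2 ratio 1.19, adjusted p = 0.038), and PPARGC1A, a coactivator of mitochondrial genes (2.15, adjusted p = 0.022). The PPARGC1A call ended without PEO1 replicate 1 (1.52, adjusted p = 0.097). The NRIP1 call ended without either parental library (adjusted p = 0.080 and 0.25) and without any 1 of 5 clone libraries, both of ABTr1, both of ABTr3 and ABTr4 replicate 1 (adjusted p = 0.053 to 0.074).

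Genes of estrogen synthesis and inactivation changed in both directions. The list held 28 genes, of which 22 were tested, and 5 fell, 3 rose and 14 did not pass, where 8.79% of all tested genes fell and 7.17% rose. With the block, with which 18.2% and 16.3% of all genes did, 9 fell and 6 rose. Without PEO1 replicate 2 the counts were 2 and 0, and without PEO1 replicate 1 they were 5 and 1. Aromatase, CYP19A1, which makes estrogens from androgens, was not tested, with 7 reads over all 10 libraries. SULT2B1, a sulfotransferase of hydroxysteroids and cholesterol, was at 6.42 and 16.4 CPM in parental libraries and 0 to 0.615 CPM in clone libraries (log2 ratio -5.81, SE 0.72, edgeR adjusted p = 0.0015). CYP1A1, which hydroxylates estradiol and is induced by the aryl hydrocarbon receptor, was at 1.98 and 7.08 CPM and then 0 to 0.400 CPM (-5.33, SE 0.60, adjusted p = 9.9e-04). Without PEO1 replicate 2 these were -4.99 and -4.16, both still past the threshold, as were -7.27 for SULT2B1 without ABTr4 replicate 2 and -6.30 for CYP1A1 without ABTr2 replicate 1.

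HSD17B12, a reductase of estrone and of long-chain fatty acids, fell from 216 ± 94.4 to 88.4 ± 14.3 CPM (log2 ratio -1.30, edgeR adjusted p = 0.0086), and stood at -0.78 (adjusted p = 0.12) without PEO1 replicate 2. HSD17B8, an oxidizing member of the same enzyme family, had 5 and 3 parental reads and rose to 0.554 to 2.68 CPM (log2 ratio 3.46, SE 0.64, edgeR adjusted p = 0.0089). The row counted as HSD17B8 joins 54 exon pieces, with a lowest position of 4404637 and a highest of 33174608. Only the sequence of the first piece, chromosome 6, was read, so these positions need not lie on the same sequence. What the few reads of this row measure was not tested. The HSD17B8 call ended without PEO1 replicate 1 (3.49, adjusted p = 0.054) or PEO1 replicate 2 (3.40, adjusted p = 0.071), at nearly the same ratio.

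The wider list of estrogen target genes, chosen with earlier results of these data known, fell more often than it rose. It was not split into genes raised and genes lowered by estrogen. Of 56 tested, 18 fell, 6 rose and 32 did not pass, with a median log2 ratio of -0.69 against 0.02 over all tested genes, of which 8.79% fell and 7.17% rose. With the block 27 fell and 9 rose, beside 18.2% and 16.3% of all genes. The counts were 7 and 2 without PEO1 replicate 2, beside 3.43% and 2.14%, and without PEO1 replicate 1 they were 18 and 2. Of these 56, 15 had all clone libraries below both parental libraries and 6 had all above, or 26.8% and 10.7%, against 12.5% and 14.5% of all tested genes. KRT19, on this list, is also an epithelial marker and fell with the rest of those.

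INHBB, a subunit of inhibin and activin B, was at 321 and 910 CPM in parental libraries and 0 to 2.05 CPM in clone libraries (log2 ratio -11.53, SE 0.62, edgeR adjusted p = 4.2e-05). CISH, an inhibitor of cytokine signalling, was at 15.45 and 80.4 CPM and then 0.493 to 1.53 CPM (-5.41, SE 0.44). KRT13, a keratin of stratified epithelium, was at 2.55 and 24.8 CPM and then 0 to 0.198 CPM (-7.40, SE 0.74). EFEMP1, a matrix protein, was at 42.2 and 197 CPM and then 1.95 to 18.02 CPM (-4.66, SE 0.56). In all 4 the parental libraries differed from each other by far more than those of ESR1 did, with replicate 2 the higher. Without PEO1 replicate 2 the log2 ratios were -10.61, -3.80, -5.00 and -3.18, each past the threshold. INHBB was at -12.82 without ABTr2 replicate 1.

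PDZK1, a scaffold protein induced by estradiol in breast cells, was at 1.54 and 13.6 CPM in parental and 0.366 to 1.16 CPM in clone libraries (log2 ratio -3.72, SE 0.58, edgeR adjusted p = 0.0042). Without PEO1 replicate 2 it was -1.45 (adjusted p = 0.16). CCND1, cyclin D1, the cell cycle regulator through which estrogen drives division, was at 821 and 1299 CPM in parental and 190 to 1001 CPM in clone libraries, with overlap. It did not pass (-0.99, SE 0.59, adjusted p = 0.29) and passed with the block (-1.35, adjusted p = 0.028).

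**Figure D3:**
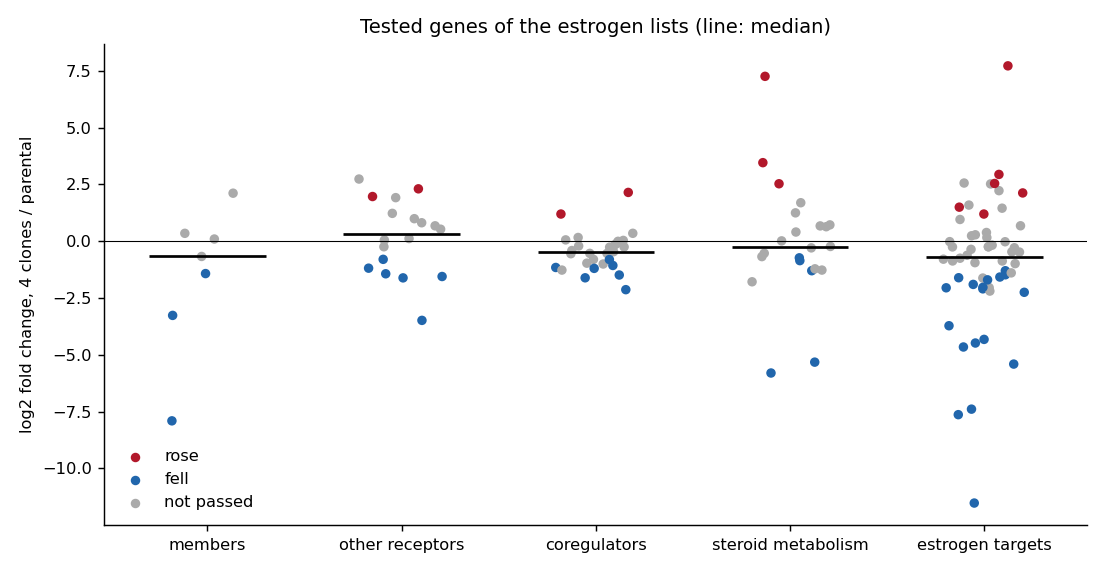
Log2 fold change of the mean of 4 clones against parental for the 7 tested genes and for the 4 wider lists, each point a gene, red for a rise, blue for a fall and grey for genes that did not pass, with the median as a black line. The estrogen target list has the lowest median, -0.69, beside 0.32 for the other receptors. The genes and lists were chosen with earlier results of these data known.

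The genes around ESR1 were examined for a change of the whole neighbourhood. Of the 8 other genes whose span begins within 1 Mb of that of ESR1 on chromosome 6, by hg19 position, 7 were tested. In edgeR 0 of them passed, where 16.0% of all tested genes did. At an unadjusted p under 0.05 there were 2, MTHFD1L and CCDC170, beside 31.1% of all genes. DESeq2 passed 1, CCDC170, beside 24.7% of all genes, and limma-voom passed 0, beside 14.5%. By first position the nearest was CCDC170, whose span begins 196 kb before that of ESR1. It was at 0.645 and 1.32 CPM in parental libraries and 1.18 to 8.80 CPM in clone libraries (log2 ratio 1.49, SE 0.56, edgeR adjusted p = 0.11). On the other side, SYNE1, a nuclear envelope protein gene whose span begins 431 kb after, had a log2 ratio of 0.41 (SE 0.26, edgeR adjusted p = 0.31). By the gap between spans SYNE1 was closer. It begins at 152442819, after the ESR1 end at 152424408, while CCDC170 ends at 151942328, before the ESR1 start at 152011631. RMND1 and C6orf211, whose spans begin 286 and 238 kb before, had log2 ratios of -0.11 (SE 0.18) and -0.02 (SE 0.21). With the block 3 of the 7 passed, beside 34.6% of all genes. These were CCDC170 (1.52, edgeR adjusted p = 0.014) and AKAP12 (1.82, adjusted p = 0.038) as higher and MTHFD1L (-1.07, adjusted p = 0.0044) as lower. AKAP12 was at 1.33 without the block, at 4.27 (adjusted p = 0.012) without PEO1 replicate 1 and at 0.41 (adjusted p = 0.71) without PEO1 replicate 2. MTHFD1L passed also without ABTr2 replicate 1 (-1.16, adjusted p = 0.026) and when each clone's libraries were summed (-0.87, adjusted p = 0.028).

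**Figure D4:**
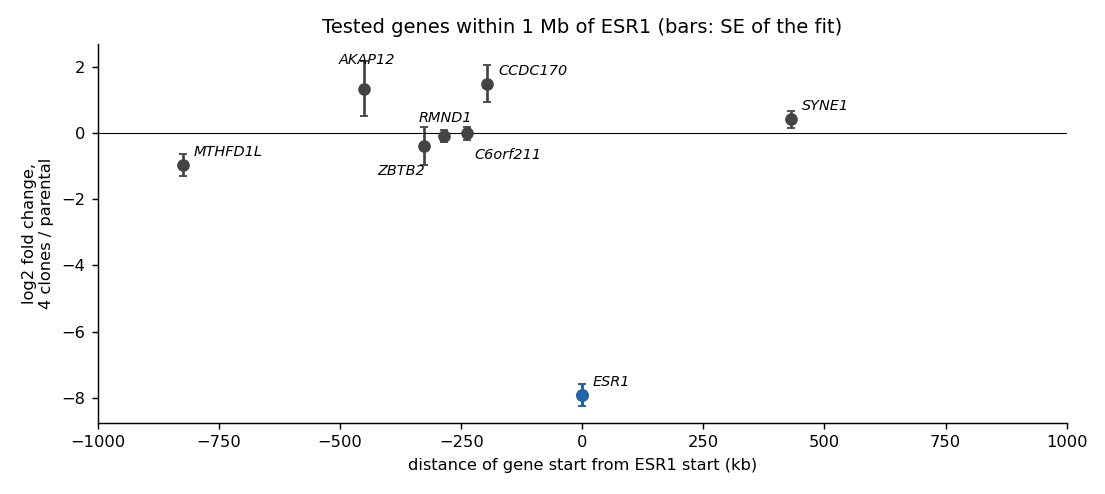
Log2 fold change of the mean of 4 clones against parental, with the SE of the fit, plotted over the distance of each gene's span from that of ESR1, by their first positions, in kilobases. ESR1 is at -7.91 and the 7 other tested genes lie between -0.97 and 1.49.

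The 5 genes whose profile over the 10 libraries was most like that of ESR1 were KLK5, S100A14, PVRL4, MTUS1 and ALDH3B2. Likeness was the root mean square difference of log2 CPM after each gene was centred on its own mean, and it was 0.80, 0.80, 0.80, 0.91 and 0.93 for these, against a median of 3.26 over all tested genes. Each was at least 10.3 CPM in both parental libraries and at most 7.02 CPM in every clone library. S100A14, a calcium-binding protein of epithelial cells, was at 316 ± 70.6 CPM in parental PEO1 against 1.71 ± 1.41 CPM in the clones. ALDH3B2 had 865 parental reads and 1 clone read. They are on chromosomes 19, 1, 1, 8 and 11, and they were chosen by this likeness, so their fall is a description. Without PEO1 replicate 2 KLK5 and MTUS1 had log2 ratios of -6.76 and -5.69 in place of -7.63 and -6.86.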

How the data were processed

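Gene counts deposited by the authors were used as given. They are whole reads per gene, not normalized. The submitters' processing notes name the build hg19, TopHat2 2.0.14 and Subread's featureCounts 1.4.6, and how strand was treated in counting is not given in the sources used here. Groups were taken from the titles, because clone numbers in the descriptions differ from them. Nothing in the labels tells whether the 2 libraries of a group came from separate cultures. The p-values then reflect only library-to-library spread, which may be technical.

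Counts were fitted with edgeR 4.0.16 in R 4.3.3, with its quasi-likelihood test, 1 mean per group over all 5 groups, TMM factors, filterByExpr and Benjamini-Hochberg adjustment over 16490 genes, with a threshold of 0.05 on the adjusted p. The fit was tested on simulated data. Each SE was derived from that test, as the size of the log2 ratio divided by the square root of its F statistic. Log2 CPM used a prior count of 2. Limits at 0 use 3 reads, and intervals cover counting error only. Figures were drawn with matplotlib 3.10.9.

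Deviations of same-numbered libraries from their group means correlated at 0.280 to 0.731 over the 10 pairs of groups, all above 0.1. The replicate number was therefore taken as a pairing in an alternative fit, where it is a block. The main fit, which gave the p-values not marked otherwise, leaves this pairing out. Alternatives were that block, RLE factors, DESeq2 1.42.0, limma-voom (limma 3.58.1), no filter, the compared groups alone, the clone as the unit, and leaving out each library, where the lone library of a group is assumed to vary like the other groups.

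The genes and lists were chosen with earlier results of these data known. The text names all 9 genes, the 4 genes of each wider list with the smallest p among those that passed, a few genes named in any case (GATA3, GPER1, TFF2, PDZK1 and CCND1, with 1 more that is not reported here), the genes within 1 Mb of ESR1, and the 5 with profiles most like ESR1. All 171 list entries were found, 1 under an older symbol.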

Additional observations from a re-analysis of the deposited data

How the results depend on the processing

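The counts of genes that passed depended on the fit. With the replicate block, which pairs same-numbered libraries, 5699 genes passed in the mean comparison in place of 2631, with 4956, 3640, 3722 and 4450 in ABTr1 to ABTr4 in place of 1611, 1008, 1216 and 1602, and 139 among clones in place of 1. DESeq2 passed 4072, 3175, 2488, 2526, 3118 and 284 in the same order. Among clones limma-voom passed 0, no filter 2 and the clones alone 0, and with only the compared groups the single clones passed 657, 103, 729 and 438. Leaving out 1 library gave 919 to 2529 genes in the mean comparison, 221 to 1621, 244 to 1019, 84 to 1265 and 459 to 1597 in ABTr1 to ABTr4, and 0 to 1 among clones, and 1 to 3 of the 7 estrogen genes. In ABTr3 the unpassed ESR2 turned to -0.038 with the block and -0.11 in limma-voom, and GREB1 to 0.11 and 0.18. Leaving out 1 library, unpassed log2 fold changes that turned sign ranged, in the mean comparison, from -0.071 to 0.52 (ESR2), -0.46 to 0.92 (GREB1), -1.33 to 0.45 (CA12), -0.95 to 0.49 (ZBTB2), -0.24 to 0.0040 (RMND1) and -0.17 to 0.11 (C6orf211), and in single clones from -0.12 to 0.58, -0.96 to 1.08 and -1.44 to 0.94 (ESR2 in ABTr1 to ABTr3), -0.51 to 0.89, -0.62 to 0.75, -0.59 to 0.81 and -0.12 to 1.25 (GREB1 in ABTr1 to ABTr4), -0.28 to 1.68 and -0.51 to 1.25 (CA12 in ABTr1 and ABTr2), and -4.10 to 6.92 and -0.37 to 4.63 (PGR in ABTr2 and ABTr4). The cause was not tested.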
